A study of Sus scrofa with 12 samples.

Results

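LIN28A, SALL4, NANOG, GATA6 and NID2 are genes of the inner lineages of the blastocyst, the epiblast that gives rise to the fetus and the hypoblast that lines the yolk sac. They were chosen by name as listed epiblast or hypoblast genes with a row in the expression table, and they are 5 of the 31781 pig gene identifiers measured. Other epiblast and hypoblast genes also had a row, and the choice was made with earlier results of these data known. Each symbol matched 1 identifier, which was ENSSSCG00000003557 for LIN28A, ENSSSCG00000053517 for SALL4, ENSSSCG00000040403 for NANOG, ENSSSCG00000003702 for GATA6 and ENSSSCG00000005030 for NID2.

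RNA was measured in pig (Sus scrofa) blastocysts that developed after parthenogenetic activation, in which an egg starts to divide without sperm, so every group here lacks a paternal genome. The groups are vitrification II (3 libraries), vitrification I (3 libraries), vitrification (2 libraries) and fresh control (3 libraries), 11 libraries of the 12 labelled samples in 4 groups. Vitrification is cooling fast enough to form a glass rather than ice. Liquid helium appears in the series title, but neither its group nor the difference between the vitrified groups' procedures is given in the labels, and the remaining vitrification library was not analysed here. The labels give no embryo age, strain or culture for any group. The labels name the blastocyst as source while the protocol speaks of sorted single cells. Nothing in the labels says that libraries of a group came from separate cultures or pools of embryos, so a p-value here covers no more than the library-to-library spread, part or all of which may be technical.

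In mammalian embryos the inner cell mass separates into epiblast, where NANOG and SALL4 act, and hypoblast, where GATA6 acts. In mouse, NANOG and GATA6 repress each other, and FGF signalling through MAP kinase shifts cells toward the GATA6 state. Hypoblast cells then lay down a basement membrane of laminins, type IV collagen and nidogens, to which NID2 belongs. LIN28A is an RNA-binding protein that blocks the maturation of let-7 microRNAs and is high in pluripotent cells.

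LIN28A, SALL4 and NID2 were higher in vitrification II than in fresh control, LIN28A was lower in vitrification I than in fresh control, and no change was called for NANOG or GATA6 in any comparison. Levels below are FPKM, a fragment measure corrected for gene length and library size, with mean ± SD over the libraries of a group. Each change is a difference between group means of log2(FPKM + 1), ± SE, from a linear model fitted with limma over 9411 genes, and a change was called at a Benjamini-Hochberg adjusted p under 0.05. Adding 1 to FPKM understates the change of genes at low levels, which applies most to SALL4, NANOG and NID2. The median of all 9411 genes also moved between groups, by 0.62 in vitrification II against fresh control and by -0.06 in vitrification I against fresh control, so changes are also given relative to that median. The 3 comparisons with fresh control share the same 3 control libraries, and those with vitrification II share its 3 libraries.

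**Figure D1:**
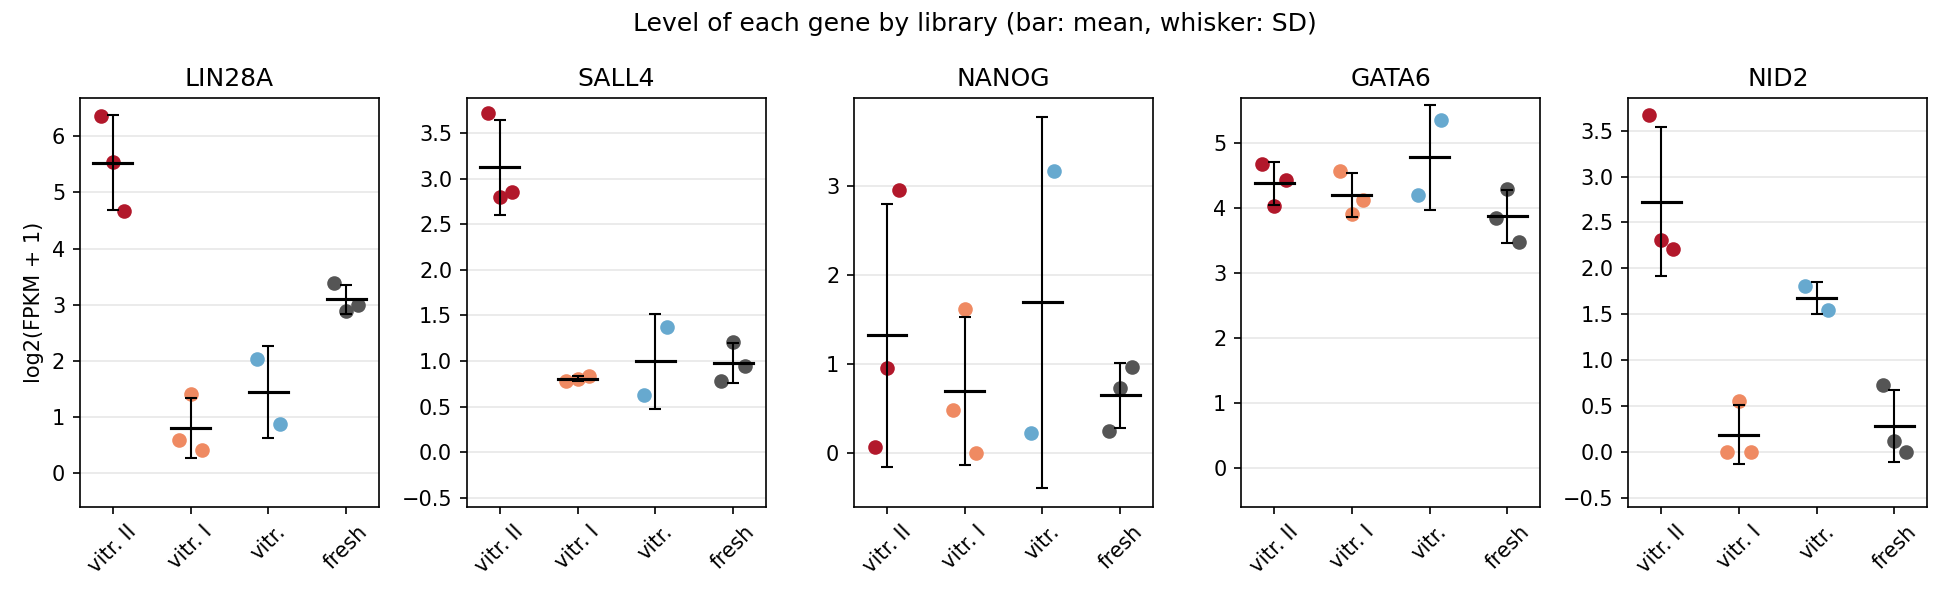
Log2(FPKM + 1) of LIN28A, SALL4, NANOG, GATA6 and NID2 in each library, by group, with a bar at the group mean and whiskers of 1 SD on that scale. The vitrification II libraries of LIN28A, SALL4 and NID2 lie above every library of the other groups, while the groups of NANOG and GATA6 overlap.

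LIN28A had 81.6, 45.7 and 24.5 FPKM in vitrification II, 0.502, 1.66 and 0.328 FPKM in vitrification I, 3.08 and 0.831 FPKM in vitrification, and 9.50, 6.44 and 6.96 FPKM in fresh control. Every vitrification II library was above every fresh control library, and every library of the other vitrified groups was below every fresh control library. The group means were 50.6 ± 28.9 in vitrification II, 0.830 ± 0.723 in vitrification I, 1.96 ± 1.59 in vitrification and 7.63 ± 1.64 FPKM in fresh control. The mean in vitrification II was 6.63 times that in fresh control, and the mean in vitrification I was 0.109 times that in fresh control. On the log2 scale LIN28A rose by 2.44 ± 0.47 in vitrification II against fresh control (limma adjusted p = 0.00267), which is 1.81 relative to the median gene. It fell by 2.29 ± 0.47 in vitrification I against fresh control (limma adjusted p = 0.0047), a change of -2.23 relative to the median gene. Quantile normalization, which forces every library to the same distribution, ended the call against fresh control in vitrification II, with 1.72 and adjusted p = 0.0532.

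Among the vitrified groups, LIN28A was 4.73 ± 0.47 higher on the log2 scale in vitrification II than in vitrification I (limma adjusted p = 2.43e-05) and 4.08 ± 0.52 higher than in vitrification (0.00258). Without vitrification replicate 2 the adjusted p of the last comparison was 0.0516. The order of LIN28A levels was vitrification II, fresh control, vitrification and vitrification I. The neighbours vitrification and fresh control differed by -1.64 ± 0.52 on the log2 scale without passing the threshold (limma adjusted p = 0.11), although their libraries did not overlap. Vitrification I and vitrification, the lowest pair, differed by -0.65 ± 0.52 (limma adjusted p = 0.488), and their libraries overlapped. LIN28A stood 21st of the 9411 genes by the p of the F test for any difference among the groups.

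Some markers of the outer layer, the trophectoderm, differed between the same groups, and their part in the LIN28A result was not tested. Of the 12 trophectoderm genes tested, 3 (KRT8, CLDN4 and ELF3) had every vitrification II library above and every vitrification I library below every fresh control library, as LIN28A did, and the other 9 did not. Of all 9411 genes, 623 showed this order, and 645 (6.85%) showed it or its reverse. The 13 trophectoderm genes with an identifier summed to between 13807 and 22188 FPKM in vitrification II, between 2481 and 5723 in vitrification I, between 6681 and 17148 in vitrification, and between 10391 and 15493 in fresh control. The sums of vitrification II and fresh control overlapped. KRT8 and KRT18 made up most of the sum in every library, so the sums say little about the other listed genes. KRT8, a keratin of simple epithelia, had 10563, 18589 and 14708 FPKM in vitrification II, 1097, 3394 and 1734 in vitrification I, 12861 and 4091 in vitrification, and 6343, 10329 and 8634 in fresh control. Unlike LIN28A, KRT8 in vitrification replicate 1 was above every fresh control library, and KRT8 was not called in vitrification II against fresh control. KRT18, another keratin of simple epithelia, was lower in every vitrification II library than in every fresh control library, with 2558, 2968 and 2197 FPKM in vitrification II against 3846, 4806 and 4527 FPKM in fresh control, although the change was not called (limma adjusted p = 0.117). TFAP2A, a transcription factor of the trophectoderm, rose in vitrification I, with a mean of 123 FPKM there and 9.76 FPKM in fresh control. It was also called higher in vitrification II than in fresh control, with 50.4, 88.6 and 133 FPKM in vitrification II. The mitochondrial genome held 16.9 to 22.1% of FPKM in vitrification II, 43.8 to 64.3% in vitrification I, 38.7 to 51.8% in vitrification, and 37.6 to 43.9% in fresh control, and its part in the results was not tested. With FPKM rescaled to the total outside the mitochondrial genome, the number of the 5 genes called stayed at 3 in vitrification II against fresh control and at 1 in vitrification I against fresh control. In a library made from a whole blastocyst, fewer cells of a type and less RNA per cell cannot be told apart.

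SALL4, a zinc finger transcription factor of pluripotent cells, had 12.2, 5.94 and 6.23 FPKM in vitrification II, 0.724, 0.744 and 0.782 FPKM in vitrification I, 0.547 and 1.58 FPKM in vitrification, and 0.715, 1.31 and 0.927 FPKM in fresh control. The lowest vitrification II library was above the highest library of every other group, and the other 3 groups overlapped. The means were 8.13 ± 3.54 in vitrification II, 0.750 ± 0.0296 in vitrification I, 1.06 ± 0.732 in vitrification and 0.983 ± 0.30 FPKM in fresh control. SALL4 rose by 2.15 ± 0.35 on the log2 scale in vitrification II against fresh control (limma adjusted p = 0.00109), or 1.53 relative to the median gene. It was 2.32 ± 0.35 higher in vitrification II than in vitrification I (limma adjusted p = 0.000266). Against vitrification it was 2.13 ± 0.40 higher (limma adjusted p = 0.0146), a call that ended without either vitrification library (0.108 without replicate 1 and 0.0565 without replicate 2), with FPKM rescaled to the total outside the mitochondrial genome (0.0629) and with a pseudocount of 0.1 (0.0518). SALL4 differed by -0.17 ± 0.35 in vitrification I and by 0.02 ± 0.40 in vitrification from fresh control, with limma adjusted p = 0.779 and 0.988, and the sign of both changed under other scalings.

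NANOG, a homeodomain transcription factor of the epiblast, had 0.0501, 0.937 and 6.72 FPKM in vitrification II, 0.398, 2.06 and 0 FPKM in vitrification I, 0.167 and 7.97 FPKM in vitrification, and 0.193, 0.658 and 0.952 FPKM in fresh control. The libraries of every pair of groups overlapped, and within each vitrified group 1 library held most of the signal. The means were 2.57 ± 3.62 in vitrification II, 0.820 ± 1.09 in vitrification I, 4.07 ± 5.52 in vitrification and 0.601 ± 0.382 FPKM in fresh control. In the vitrified groups the SD was larger than the mean. The log2 change against fresh control was 0.67 ± 0.72 in vitrification II, 0.05 ± 0.72 in vitrification I and 1.04 ± 0.81 in vitrification, with limma adjusted p = 0.503, 0.972 and 0.533. The sign in vitrification II turned under median centring, and that in vitrification I under median centring, array weights and a pseudocount of 0.1. The RefSeq gene table for Sscrofa11.1 lists 2 entries named NANOG, so reads may be shared with a near-identical copy and the level is uncertain.

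GATA6, a zinc finger transcription factor that drives the hypoblast, had 24.7, 15.3 and 20.6 FPKM in vitrification II, 22.8, 14.0 and 16.5 FPKM in vitrification I, 17.5 and 39.9 FPKM in vitrification, and 13.4, 18.6 and 10.2 FPKM in fresh control. All groups overlapped, and vitrification replicate 2 was the highest library. The means were 20.2 ± 4.74 in vitrification II, 17.8 ± 4.51 in vitrification I, 28.7 ± 15.8 in vitrification and 14.1 ± 4.23 FPKM in fresh control. The log2 change against fresh control was 0.50 ± 0.39 in vitrification II, 0.33 ± 0.39 in vitrification I and 0.91 ± 0.44 in vitrification, with limma adjusted p = 0.352, 0.597 and 0.292. In vitrification II the change was -0.12 relative to the median gene, and its sign turned under quantile normalization and median centring. Per gene length, GATA6 had a higher mean than NANOG, SALL4 and NID2 in every group, and a higher mean than LIN28A in all groups but vitrification II.

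NID2, a nidogen that links laminin to type IV collagen in basement membranes, had 11.7, 3.95 and 3.63 FPKM in vitrification II, 0, 0.472 and 0 FPKM in vitrification I, 2.49 and 1.93 FPKM in vitrification, and 0.656, 0.0850 and 0 FPKM in fresh control. The vitrification II libraries were the 3 highest and the vitrification libraries came next, with no overlap between these groups or with the remaining ones. The means were 6.42 ± 4.56 in vitrification II, 0.157 ± 0.273 in vitrification I, 2.21 ± 0.402 in vitrification and 0.247 ± 0.357 FPKM in fresh control. NID2 rose by 2.45 ± 0.40 on the log2 scale in vitrification II against fresh control (limma adjusted p = 0.000995), or 1.82 relative to the median gene. It was 2.54 ± 0.40 higher in vitrification II than in vitrification I (limma adjusted p = 0.000308). The step between vitrification II and vitrification was 1.05 ± 0.44 (limma adjusted p = 0.144) and that between vitrification and fresh control was 1.40 ± 0.44 (0.109), neither called. With array weights, which let limma weight libraries by their spread, NID2 was 1.62 higher in vitrification than in fresh control, with adjusted p = 0.0326. Vitrification I and vitrification differed by -1.49 ± 0.44 (limma adjusted p = 0.0607), which passed the threshold with a pseudocount of 0.1 (0.049), without vitrification I replicate 2 (0.0483) and without vitrification II replicate 1 (0.0297).

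**Figure D2:**
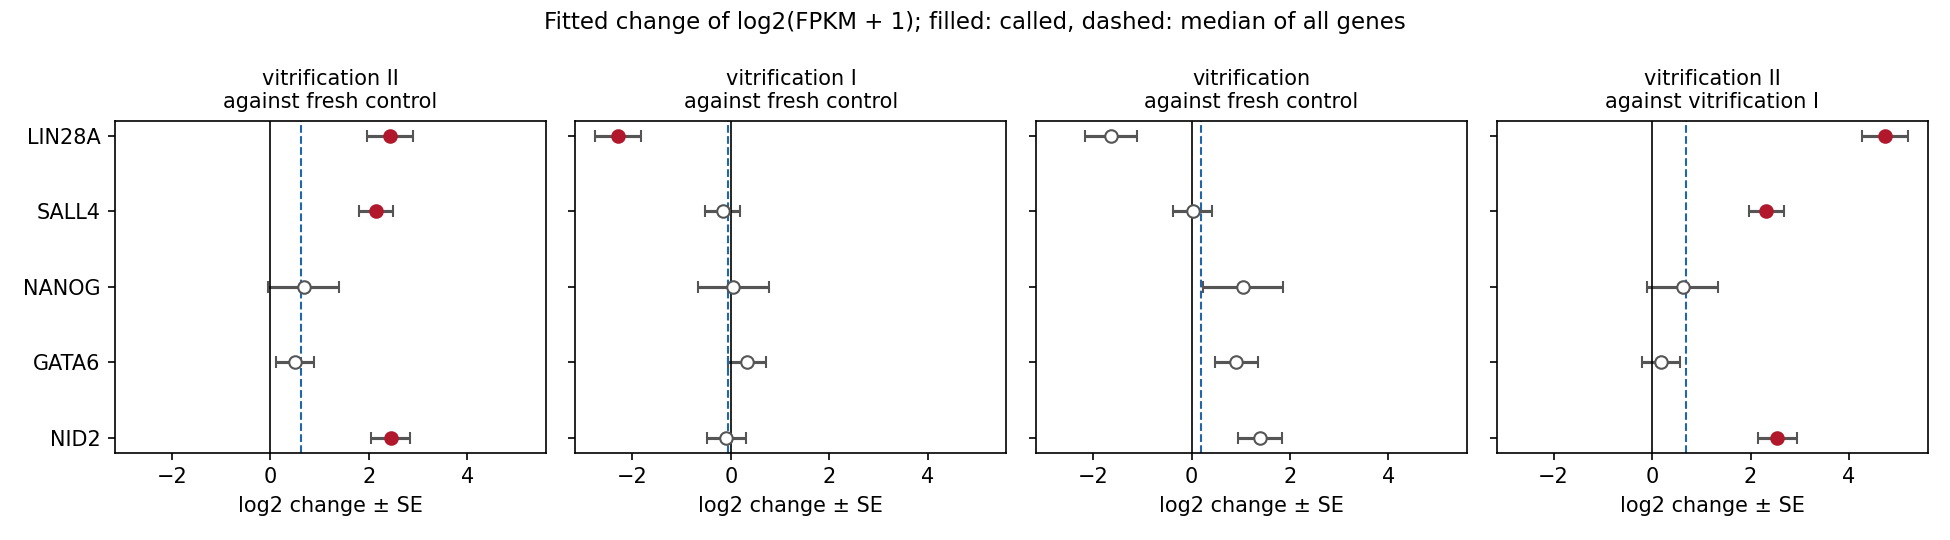
Log2 change of each of the 5 genes in each vitrified group against fresh control and in vitrification II against vitrification I. Bars are 1 SE, filled points are called changes and the dashed line is the median change of all 9411 genes. LIN28A is the gene called both higher in vitrification II (2.44) and lower in vitrification I (-2.29) against fresh control.

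Read against all genes, 3 of the 5 genes were called higher in vitrification II than in fresh control, where 24.6% of the 9411 genes were, and none was called lower. In vitrification I against fresh control 1 of 5 was called lower, where 9.77% of genes were. In vitrification II against vitrification I 3 of 5 were called higher, where 34.7% of genes were. In vitrification II against vitrification 2 of 5 were called higher, where 5.05% of genes were, and leaving out vitrification replicate 1 or replicate 2 left 1 and 0. No gene of the 5 was called by limma in vitrification against fresh control (1.37% of genes called), where 2 had an unadjusted p under 0.05, or in vitrification I against vitrification (5.63% of genes called), where 1 had. The F test called 3 of 5, and 42.7% of all genes. LIN28A, SALL4 and NID2 had every vitrification II library above all other libraries, as did 20.3% of all genes. Comparison by comparison, every library was higher without overlap for 44% of all genes in vitrification II against fresh control, 42.6% against vitrification I and 39.5% against vitrification, and for 25.5% in vitrification against fresh control. Every library was lower for 18.9% in vitrification I against fresh control, 25.9% against vitrification, and 11.5% in vitrification against fresh control. The median change of the 5 genes relative to that of all genes was 1.53 in vitrification II, -0.03 in vitrification I and 0.72 in vitrification against fresh control.

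Calls over all genes leaned upward in vitrification II against fresh control, with 2319 higher and 103 lower, and this split depended on scaling. It was 387 higher and 289 lower after quantile normalization, and 341 higher and 662 lower after median centring, a setting chosen after seeing the data. All 5 genes passed the filter of at least 1 FPKM in at least 3 libraries, but in different ways. GATA6 reached 1 FPKM in 11 libraries and LIN28A in 8. SALL4 and NID2 did so in 5 each, 3 of them from vitrification II, so these genes passed the filter through the group in which they were high. NANOG did so in 3 libraries, 1 of each vitrified group. Without the vitrification II libraries SALL4, NID2 and NANOG would not have passed, and the counts above are descriptions of the 5 genes.

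**Figure D3:**
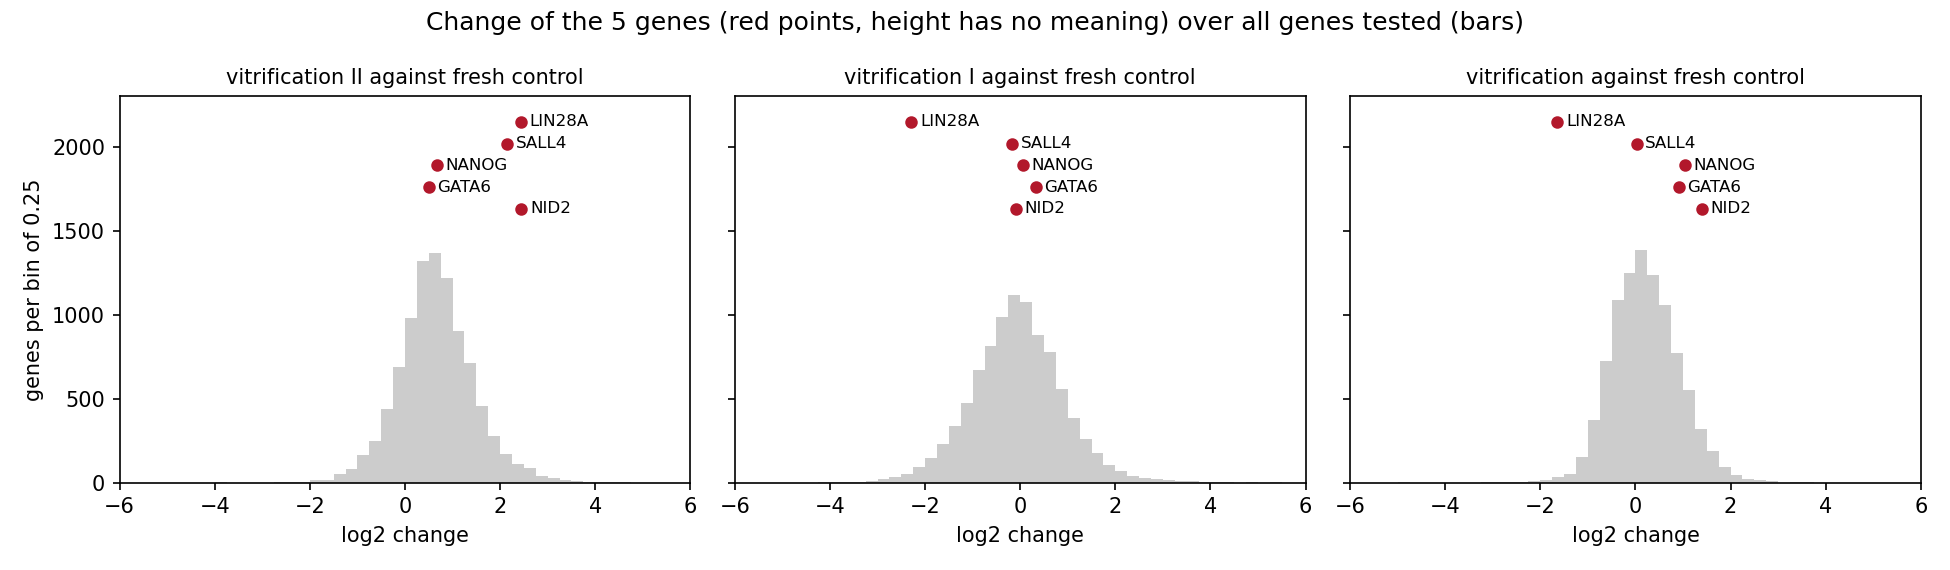
Distribution of log2 changes over the 9411 genes in the comparisons with fresh control, with the 5 genes marked as points above it. In vitrification II the histogram is centred at 0.62 and LIN28A, SALL4 and NID2 lie in its upper tail, while GATA6 (0.50) and NANOG (0.67) lie near the centre.

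The F statistic of each of the 5 genes was also set against all 92400 assignments of the libraries to groups of these sizes. This exact permutation test gave p = 0.000325 for LIN28A, 0.00156 for NID2, 0.0131 for SALL4, 0.252 for GATA6 and 0.765 for NANOG, 5 tests without adjustment. These genes were picked with earlier results known, so the values describe their spread over libraries.

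The wider epiblast and pluripotency list held 26 genes, of which 19 had an identifier and 13 passed the filter. In vitrification II against fresh control 3 rose and none fell, LIN28A, SALL4 and KLF4, and the median change of the 13 was 0.27 relative to all genes. The share of 3 in 13 is close to the 24.6% of all genes called higher, and SALL4 and NANOG would not be among the 13 without the vitrification II libraries. The count ran from 1 after quantile normalization to 10 with array weights. KLF4, a Kruppel-like factor used in reprogramming, averaged 8.13 FPKM in vitrification II and 1.88 FPKM in fresh control, a rise of 1.68 ± 0.44 (limma adjusted p = 0.0131) that ended after quantile normalization (0.211), median centring (0.149) and the fit without the filter (0.0592), and without fresh control replicate 2 (0.0696) or vitrification II replicate 2 (0.0535). In vitrification I against fresh control 1 rose, KLF5 (8.85% of all genes called higher), and 1 fell, LIN28A. KLF5, which acts in both trophectoderm and inner cell mass, averaged 129.8 FPKM in vitrification I and 27.5 FPKM in fresh control, a rise of 2.19 ± 0.37 (limma adjusted p = 0.00147). KLF5 was lower in vitrification II than in vitrification I by 1.42 ± 0.37 (0.00761), where LIN28A and SALL4 were higher. In vitrification II against vitrification I 6 genes of the list were higher (3 after quantile normalization) and 1, KLF5, was lower, where 34.7% of all genes were higher and 3.75% lower. None was called by limma in vitrification against fresh control, where 6 had an unadjusted p under 0.05, 3 of them higher and 3 lower. NODAL, a TGF-beta ligand of the epiblast, was listed at 0 in all 11 libraries, and FGF4, a fibroblast growth factor made by epiblast cells, did not exceed 0.181 FPKM. POU5F1 and SOX2, core pluripotency factors, had no identifier with that symbol and were not analysed here.

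The hypoblast list held 22 genes, of which 20 had an identifier and 12 passed the filter. Against fresh control 6 rose and none fell in vitrification II, NID2, FST, PDGFRA, LAMA1, LAMB1 and LAMC1, and the median of the 12 was 0.39 relative to all genes, of which 24.6% were called higher. NID2, PDGFRA and HNF4A would not be among the 12 without the vitrification II libraries. The count was 2 without fresh control replicate 2, 2 without the filter, and 1 after quantile normalization or median centring. LAMC1, the laminin gamma chain that nidogens bind, averaged 9.91 FPKM in vitrification II and 1.72 FPKM in fresh control, a rise of 1.97 ± 0.42 (limma adjusted p = 0.00494) that ended after quantile normalization (0.116) and median centring (0.0867). LAMC1 also rose by 2.53 ± 0.42 in vitrification I against fresh control (limma adjusted p = 0.00139) (14.9 FPKM and 1.72 FPKM), where NID2 differed by -0.10 ± 0.40 (0.894). FST, which binds activin, had 82.7, 80.2 and 80.6 FPKM in vitrification II and 57.4, 4.02 and 9.07 FPKM in fresh control, where replicate 1 was far above the other libraries. Its mean was 81.2 ± 1.36 in vitrification II and 23.5 ± 29.5 FPKM in fresh control, a rise of 2.52 ± 0.63 (limma adjusted p = 0.0107) that ended without fresh control replicate 2 (0.0588), after quantile normalization (0.0565), after median centring (0.0846) and without the filter (0.093). PDGFRA, a receptor of hypoblast cells, averaged 3.35 ± 1.81 in vitrification II, 0.759 ± 0.894 in vitrification I, 2.15 ± 2.97 in vitrification and 0.425 ± 0.146 FPKM in fresh control. Its call in vitrification II (1.52 ± 0.53, limma adjusted p = 0.045) ended without any 1 of the fresh control libraries (0.0732 to 0.115). It also ended without vitrification II replicates 2 (0.1) or 3 (0.148) or vitrification I replicate 1 (0.0517). Quantile normalization (0.313), median centring (0.385), rescaling outside the mitochondrial genome (0.106), a pseudocount of 0.1 (0.128) and the fit without the filter (0.216) ended it too. GATA4, a partner of GATA6, stayed below the filter at 0.320 ± 0.0932 in vitrification II, 0.256 ± 0.354 in vitrification I, 0.877 ± 0.157 in vitrification and 0.0975 ± 0.0563 FPKM in fresh control. FOXA2 was listed at 0 in all 11 libraries, and SOX17 had no identifier with that symbol and was not analysed here.

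Basement membrane genes were read beside NID2. Of 16 listed, all had an identifier and 6 passed the filter, and 4 of the 6 (NID2, LAMA1, LAMB1 and LAMC1) also stand in the hypoblast list. NID2, LAMB3 and HSPG2 would not have passed without the vitrification II libraries, so the count that follows is a description. Against fresh control 5 of the 6 rose in vitrification II and none fell, where 24.6% of all genes were called higher. The count was 3 without fresh control replicate 2 and 2 after quantile normalization or median centring. LAMB3, a laminin beta chain of epithelia, averaged 5.96 FPKM in vitrification II and 0.421 FPKM in fresh control, a rise of 2.28 ± 0.38 (limma adjusted p = 0.00112). It was also 2.16 ± 0.38 higher in vitrification II than in vitrification I (0.000633). NID1, the other nidogen, did not exceed 0.208 FPKM in any library. The type IV collagen genes COL4A1 and COL4A2, which nidogens join to laminin, did not exceed 1.01 and 0.0678 FPKM.

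Genes of let-7 processing and partners or targets of LIN28 were read beside LIN28A. Of 15 listed, 13 had an identifier and 12 passed the filter. Against fresh control 7 of the 12 rose in vitrification II and none fell, with a median of 0.85 relative to all genes, of which 24.6% were called higher, and 3 were called after quantile normalization or median centring. IGF2BP1, an RNA-binding protein whose mRNA is a let-7 target, averaged 39.2 FPKM in vitrification II, 2.86 FPKM in vitrification I, 12 FPKM in vitrification and 14.4 FPKM in fresh control. It rose by 1.39 ± 0.34 in vitrification II against fresh control (limma adjusted p = 0.01), a call that ended after quantile normalization (0.139), after median centring (0.244) and without fresh control replicate 2 (0.0531). It fell by 2.01 ± 0.34 in vitrification I against fresh control (limma adjusted p = 0.00165). In that comparison 1 of the 12 genes fell, IGF2BP1, and 2 rose, AGO2 and TRIM71, where 9.77% of all genes fell and 8.85% rose. TRIM71 had 7.91, 14.2 and 2.44 FPKM in vitrification I and 2.21, 2.07 and 0.643 FPKM in fresh control. The calls of AGO2 and TRIM71 ended without fresh control replicate 3 (limma adjusted p = 0.0699 and 0.133). HMGA1, a chromatin protein, averaged 50.8 FPKM in vitrification II and 7.01 FPKM in fresh control, a rise of 2.76 ± 0.38 (limma adjusted p = 0.000413). XPO5, which exports microRNA precursors from the nucleus, averaged 35.1 FPKM in vitrification II and 3.28 FPKM in fresh control, a rise of 3.13 ± 0.39 (0.000266). IGF2BP3 averaged 12.4 FPKM in vitrification II and 1.40 FPKM in fresh control, a rise of 2.48 ± 0.42 (0.00121). LIN28B, the paralog of LIN28A, stayed below the filter and did not exceed 1.57 FPKM.

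Genes of the signals that act on the choice between NANOG and GATA6 in mouse were read next. Of 21 FGF and MAP kinase genes all had an identifier and 16 passed the filter, of which 7 rose and none fell in vitrification II against fresh control, with a median of 0.11 relative to all genes, of which 24.6% were called higher. DUSP6, SOS1, FGF2 and MAPK3 would not be among the 16 without the vitrification II libraries. The count of 7 was 3 without fresh control replicate 2, 4 without fresh control replicate 3 or vitrification II replicates 1 or 3, 2 after quantile normalization or median centring, and 3 without the filter or after rescaling outside the mitochondrial genome. NRAS, a small GTPase of the pathway, averaged 50.7 FPKM in vitrification II and 3.76 FPKM in fresh control, a rise of 3.43 ± 0.46 (limma adjusted p = 0.000373). DUSP6, a phosphatase induced by ERK that limits it, averaged 10.9 FPKM in vitrification II and 0.345 FPKM in fresh control, a rise of 2.99 ± 0.49 (0.00105). Of 14 NODAL and activin genes 13 had an identifier and 8 passed the filter, of which 2 rose in vitrification II against fresh control, a share close to the 24.6% of all genes called higher, and a count that ran from 0 to 3 when libraries were left out 1 at a time and was 0 after quantile normalization, median centring or rescaling outside the mitochondrial genome. FOXH1, the transcription factor that acts with SMADs downstream of NODAL, averaged 6.58 FPKM in vitrification II, 0.0163 FPKM in vitrification I, 1.93 FPKM in vitrification and 2.54 FPKM in fresh control. It fell by 1.78 ± 0.32 in vitrification I against fresh control (limma adjusted p = 0.00213) and rose by 1.10 ± 0.32 in vitrification II against fresh control (0.0207). The rise was not called after quantile normalization (0.738), median centring (0.662), rescaling outside the mitochondrial genome (0.0758) or with a pseudocount of 0.1 (0.0777), nor without fresh control replicates 1 or 3 or vitrification II replicates 1 or 3 (0.0517 to 0.0744). In vitrification I against fresh control 1 of the 8 fell, FOXH1, and 1 rose, ACVR2A, where 9.77% of all genes fell and 8.85% rose. ACVR2A had 5.02, 2.37 and 6.05 FPKM in vitrification I and 1.11, 0.565 and 0.912 FPKM in fresh control. Its call ended without the filter (0.0715) and without fresh control replicates 2 or 3 or vitrification I replicates 1 or 3 (0.055 to 0.0769).

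SALL4 recruits the NuRD complex, which removes acetyl groups from histones, and 13 NuRD genes were read beside it. Of these 11 had an identifier and 10 passed the filter. Against fresh control 3 rose and none fell in vitrification II, with a median of -0.08 relative to all genes, of which 24.6% were called higher, and the count was 1 without fresh control replicate 2 and 0 after quantile normalization or median centring. MTA2, a core subunit, averaged 20.0 FPKM in vitrification II and 3.57 FPKM in vitrification I, a difference of 2.26 ± 0.40 (limma adjusted p = 0.000743). MBD2, the subunit that binds methylated DNA, was highest elsewhere, at 4.80 FPKM in vitrification I and 0.798 FPKM in fresh control, a rise of 1.67 ± 0.36 (0.00627).

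**Figure D4:**
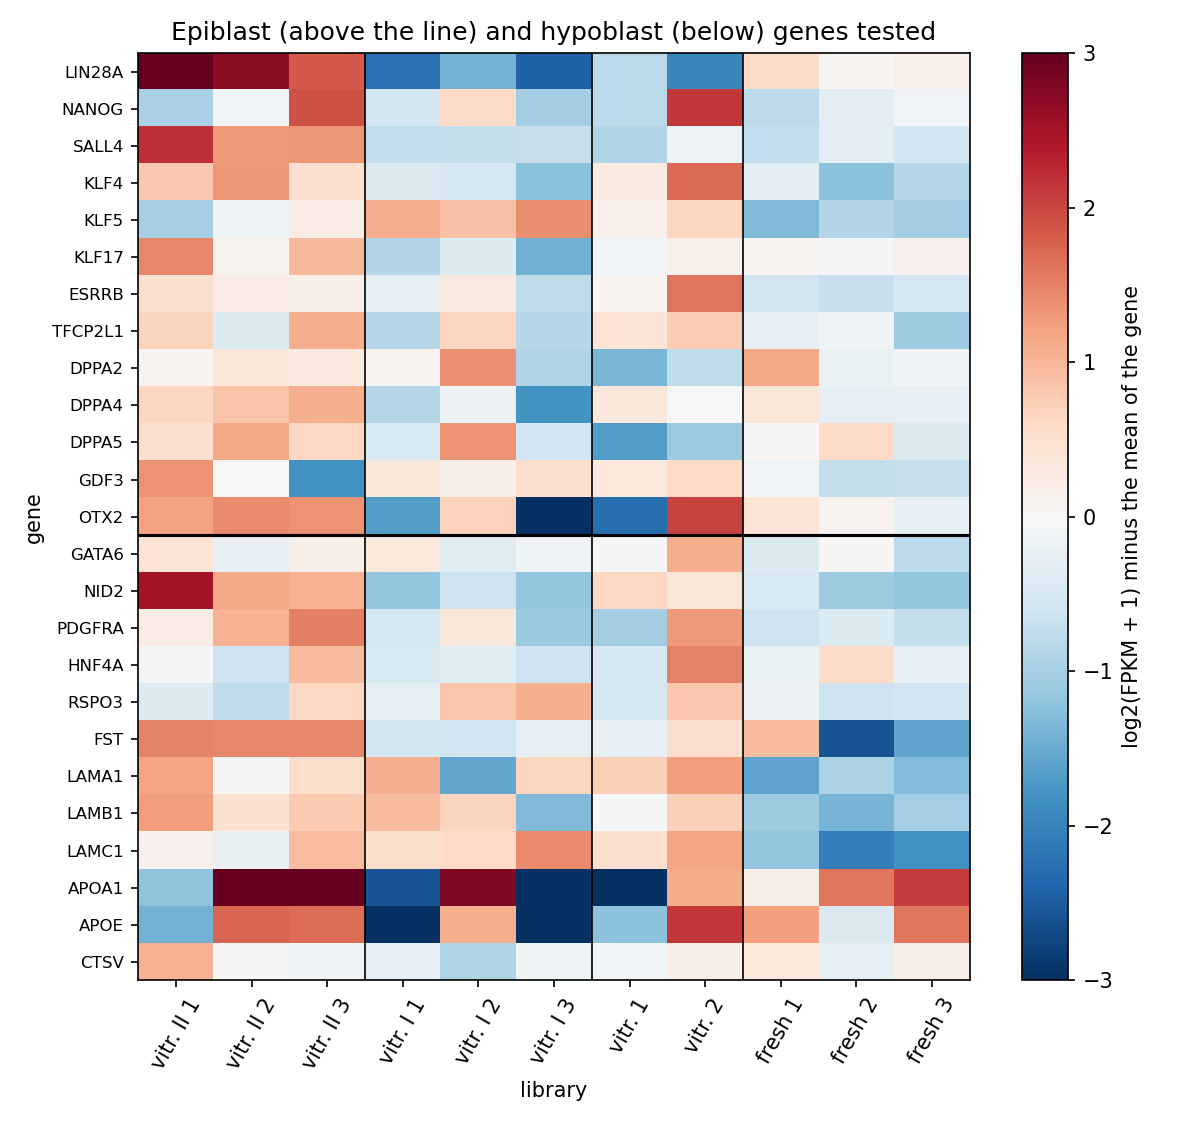
Log2(FPKM + 1) of the listed epiblast and hypoblast genes that passed the filter, in the 11 libraries. Each gene is shown as its difference from its mean over libraries, with colours limited to ±3. LIN28A, SALL4 and NID2 are highest in the vitrification II libraries, whereas KLF5 is highest in vitrification I.

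The tissue label was checked against markers of the trophectoderm and of other cells. KRT8 and KRT18, keratins of the trophectoderm, were at or above 1088 FPKM in every library. CDX2, a transcription factor that sets the trophectoderm apart, averaged 3.43 ± 1.73 in vitrification II, 2.60 ± 1.26 in vitrification I, 3.57 ± 1.52 in vitrification and 2.89 ± 1.10 FPKM in fresh control. GATA3 of the same lineage averaged 38.8 ± 13.9 in vitrification II, 45.5 ± 22.5 in vitrification I, 27.7 ± 9.34 in vitrification and 31.7 ± 10.7 FPKM in fresh control, and neither gene was called in any comparison. In vitrification I against fresh control 5 of the 12 trophectoderm genes tested fell and 1, TFAP2A, rose, where 9.77% of all genes fell and 8.85% rose. Against fresh control 4 rose and none fell in vitrification II, where 24.6% of all genes rose. The last count was 1 without fresh control replicate 1 or 2 or vitrification II replicate 1, 2 without fresh control replicate 3 or vitrification II replicate 2 or 3, and 1 without the filter, after median centring or after rescaling outside the mitochondrial genome. CLDN4, a tight junction claudin, averaged 405 FPKM in vitrification II, 25.4 FPKM in vitrification I, 247 FPKM in vitrification and 179.9 FPKM in fresh control. It fell by 2.81 ± 0.40 in vitrification I against fresh control (limma adjusted p = 0.00057).

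Most markers of other cell types were low, with exceptions. GDF9, in the oocyte list, lay between 3.29 and 8.4 FPKM in all 11 libraries. LYZ and HBB, in the leukocyte and erythroid list, reached 12 FPKM in fresh control replicate 1 and 10.4 FPKM in vitrification replicate 2. The 8 cumulus and granulosa genes with an identifier summed to at most 4.08 FPKM in any library, with PTX3 and HAS2 listed at 0 throughout. The 7 leukocyte and erythroid genes summed to at most 15.6 FPKM, with PTPRC and ALAS2 listed at 0 throughout. The 10 maternal oocyte genes summed to 4.06 to 18.1 FPKM in vitrification II, 3.85 to 6.54 in vitrification I, 5.38 to 6.44 in vitrification and 6.51 to 8.05 in fresh control, with ZP3, NLRP5 and ZAR1 listed at 0 throughout. Library totals lay between 439650 and 591894 FPKM. Genes above 0 numbered 15415 to 16204 in vitrification II, 11550 to 14039 in vitrification I, 17726 to 18527 in vitrification and 15383 to 16046 in fresh control. Sequencing depth is unknown, since the table holds no counts, so no detection limit is given.

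For each of the 5 genes, the genes with the most similar pattern were taken as those with a symbol, a mean of at least 5 FPKM and the highest Pearson r of log2(FPKM + 1) over the 11 libraries. The points share libraries and groups, and r is given as a description without a test. For LIN28A these were COMMD5, RTF2 and SNRPA, each with r = 0.97. For SALL4 they were TXNIP, NFX1 and C3orf52, with r = 0.95, 0.94 and 0.93. For NID2 they were EIF4H (0.97), HMGA1 (0.95) and EDC3 (0.95), of which HMGA1 is also in the let-7 list above. For NANOG and GATA6 the highest r were lower. They were 0.86 for C18orf32 and 0.81 for VCAN with NANOG, and 0.80 for KIF21A, 0.79 for TSPAN14 and 0.77 for HUWE1 with GATA6.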

How the data were processed

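RNA was measured by Smart-Seq2 with paired-end Illumina sequencing, per the labels. The deposited FPKM values were made by the authors and hold 1 value per gene identifier and library. Cufflinks 2.2.1, TopHat2 2.0.13, DESeq2 and FastQC are listed in the submitters' processing notes, with no role stated. The genome build is not given in the sources used here. Symbols matched 15347 of 31781 identifiers. Without counts the sequencing depth is unknown, and 0 pairs of libraries were identical.

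From these values, log2(FPKM + 1) was analysed for the 9411 genes with at least 1 FPKM in at least 3 libraries, of which 8158 (86.7%) had a symbol. All 11 libraries entered a limma 3.58.1 fit (R 4.3.3) with a mean for each group and an intensity trend in the prior variance. Pairs of groups were tested two-sided, and any difference among groups with the moderated F test, with Benjamini-Hochberg adjustment over all genes kept. The exact test of single genes is given unadjusted. The design set out 3 vitrification libraries, of which 2 were used.

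The 5 genes, the gene lists, the tests and the alternatives were chosen with earlier results of these data known. Named genes are the 5 themselves, up to 4 genes per list called by the F test with the smallest p, and CDX2, GATA3, POU5F1, SOX2, GATA4, SOX17 and PDGFRA. For likeness the rule took 3 genes for each of the 5, of which 1 is not reported here. A few further genes (LAMB1, FGF4, NODAL, FOXA2, LIN28B, NID1, COL4A1, COL4A2, KRT18, HSPG2, HNF4A, SOS1, FGF2, MAPK3, HDAC1, ACVR2B, AGO2 and TRIM71, and markers at 0) were named after their values were seen. So were GDF9, LYZ and HBB. Alternatives were quantile normalization, FPKM rescaled to the total outside the mitochondrial genome, a pseudocount of 0.1, no filter, array weights, a replicate block, only the 2 groups compared, and leaving out each library.

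The procedure was tested on simulated data for vitrification II against fresh control over 9411 genes. Of 200 genes given a log2 change of 1, 2 or 3, it recovered 0%, 69% and 95%, with 0, 8 and 8 false calls. In the data 2422 genes were called in this comparison, which makes the adjusted threshold less strict than in the simulation. The recovered shares therefore do not carry over directly to the data.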

Additional observations from a re-analysis of the deposited data

Results flagged for a closer look

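For 8 of the listed genes every vitrification II library lay on one side of every fresh control library and every vitrification I library on the other side. The 8 were among 87 listed genes tested (9.2%), and 645 of all 9411 genes (6.85%) met the same condition. The condition itself separates vitrification II from vitrification I, so the limma adjusted p-values below describe these genes and add no independent support. The change in vitrification II minus that in vitrification I, in which the control libraries cancel, was 4.73 on the log2 scale for LIN28A (adjusted p = 2.43e-05), 4.02 for CLDN4 (2.43e-05), 3.42 for ELF3 (8.26e-05), 3.40 for IGF2BP1 (2.44e-05), 2.93 for KRT8 (0.000325), 2.88 for FOXH1 (3.31e-05) and 1.26 for HDAC1 (0.0112), all higher in vitrification II. For ACVR2B, an activin receptor, it was -0.91 (0.0218), lower in vitrification II. The median of all genes differed by 0.68 in the same comparison. Of the 5 lineage genes, LIN28A met this condition.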

How the results depend on the processing

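Causes of the changes below were not tested. Of the 5 genes, array weights called 1 in vitrification against fresh control, where none was called otherwise. In vitrification II against vitrification 1 was called after rescaling to FPKM outside the mitochondrial genome and 1 with a pseudocount of 0.1 (2 otherwise, 0 to 2 with a library left out). In vitrification I against vitrification a pseudocount of 0.1 called 1 (0 to 1 with a library left out). Over all genes, vitrification against fresh control (129 called) gave 68 with a pseudocount of 0.1, 656 without the filter, 677 with array weights, 62 after median centring and 0 with only the 2 groups (0 to 207 with a library left out: 0 without fresh control replicate 2, 2 without vitrification replicate 2, 30 without fresh control replicate 3). Vitrification I against fresh control (1752) gave 906 without the filter and 3337 with array weights (832 to 2029). Vitrification II against fresh control (2422) gave 676 after quantile normalization, 1306 after rescaling outside the mitochondrial genome, 1419 without the filter, 4954 with array weights and 1003 after median centring (1017 to 2715). Vitrification II against vitrification I (3614) gave 2263 after that rescaling (2673 to 3865), and the F test (4016) gave 6154 with array weights (2981 to 4288). Vitrification II against vitrification (563) gave 330 after quantile normalization, 98 after rescaling, 48 with a pseudocount of 0.1, 944 without the filter and 1060 with 2 groups (10 to 928). Vitrification I against vitrification (530) gave 921 without the filter and 176 with 2 groups (5 to 822). Where 1 vitrification library was left, it is assumed to vary like the other groups.

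Log2 changes that changed sign were all uncalled. For NANOG they were -0.37 (pseudocount of 0.1), -0.22 (array weights) and -0.028 (median centring) in vitrification I against fresh control, -0.15 to 0.40 with a library left out; -0.20 in vitrification II against fresh control and -0.17 against vitrification I (median centring); and -1.84 to 0.26 in vitrification II against vitrification with a library left out. For SALL4 they were -0.53 (quantile normalization), -0.018 (pseudocount of 0.1) and -0.33 (median centring) in vitrification against fresh control, -0.35 to 0.39 with a library left out, 0.071 (rescaling) in vitrification I against fresh control, and 0.34 (quantile normalization) and 0.085 (median centring) in vitrification I against vitrification, -0.56 to 0.18 with a library left out. For GATA6 they were -0.24 (quantile normalization) and -0.37 (median centring) in vitrification II against fresh control, -0.65, -0.43 (rescaling) and -0.62 in the same order against vitrification I, and -0.97 to 0.17 against vitrification with a library left out. For NID2 they were 0.055 (quantile normalization) and 0.078 (array weights) in vitrification I against fresh control, -0.28 to 0.13 with a library left out.

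Same-numbered libraries of different groups did not deviate together, with r between -0.16 and 0.14 over 15 pairs. The check gave no sign of pairing by replicate number, but with at most 3 libraries per group it cannot exclude a pairing. With the replicate block, vitrification against fresh control gave 55 calls and vitrification I against vitrification 296, SALL4 changed by -0.024 in vitrification against fresh control, and no call of the 5 genes changed. The exact test stayed on the same side of 0.05 for each of the 5 genes under every alternative run.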

Other observations

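NANOG had its highest library in vitrification II replicate 3, vitrification I replicate 2 and vitrification replicate 2, a pattern chosen after the values were seen. The same library was highest in each vitrified group for 1101 of the 9411 genes tested (11.7%), and for 5 of the 25 epiblast and hypoblast genes tested (20%). Both counts include NANOG, which meets the condition by definition and raises the second share. Besides NANOG, the other 4 of these 5 were PDGFRA, HNF4A, APOA1 and TFCP2L1. APOA1, an apolipoprotein of visceral endoderm and liver, had 37.5, 750.1 and 918 FPKM in vitrification II, 13.7, 614 and 0.0626 FPKM in vitrification I, and 4.43 and 190.3 FPKM in vitrification. PDGFRA had 1.51, 3.41 and 5.13 FPKM in vitrification II, 0.532, 1.74 and 0 FPKM in vitrification I, and 0.0503 and 4.24 FPKM in vitrification.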
